A study of Mus musculus with 2 samples.

Results

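The genes described here encode lineage regulators of the GATA, forkhead and T-box families, 60 of the 19938 genes measured in mouse embryonic stem cells with and without induced reprogramming factors. Members were taken by symbol from probesets that the platform annotation assigns to a single gene: Gata1 to Gata6, Fox with one letter and a number (Foxh1 left out), Tbx with a number (Tbx3 left out), T and Eomes. This gave 6 GATA, 42 forkhead and 12 T-box genes. Among family symbols of the mouse gene table, T (Brachyury) and Tbx10 matched no such probeset and were not analysed here. The rule used names and no measured value, but it was set with earlier results of these data known.

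Both arrays held total RNA of i-OSKM-ESC, a strain 129 mouse embryonic stem cell line engineered from KH2 cells, in which doxycycline switches on c-Myc, Klf4, Oct4 and a Sox2 that carries an epitope tag. The plus doxycycline array holds RNA taken after 24 hours in 4 µg/mL of the drug. The cells of the no doxycycline array carried the same 4 inducible factors and were refed with medium lacking the drug. Each group has 1 array of 1 engineered line, so differences carry no replicate error and no test, and precision is limited by having a single array on each side. No line without the transgenes was analysed here, so an effect of doxycycline itself and an effect of the factors cannot be told apart.

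GATA factors bind DNA through zinc fingers, forkhead factors through a winged-helix domain and T-box factors through the T domain. Members of all 3 families open or occupy enhancers of germ layer genes, and several of them (Gata4, Gata6, Foxa2, Eomes) drive embryonic stem cells out of pluripotency when forced on. Embryonic stem cells hold many of these genes silent but poised. Other forkhead genes, such as Foxo1, Foxk1, Foxp1 and Foxm1, are active in many cell types and serve metabolism, stress responses and the cell cycle.

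The stretches of DNA before the genes are shown for the members on which the results turn: Foxp4 and Tbx1, the members with the largest positive differences among those above the expression filter, Foxo1 and Foxo3, which were lower together with Foxo4, and Foxd3, the embryonic stem cell forkhead gene. Each stretch is the 250 bases before the annotated gene start, read toward the gene (RefSeq, build GRCm38.p6), and of several starts the most upstream one was taken. Capitals mark CG dinucleotides, the sites of DNA methylation.
Foxp4, chr17:47924633-47924882, minus strand: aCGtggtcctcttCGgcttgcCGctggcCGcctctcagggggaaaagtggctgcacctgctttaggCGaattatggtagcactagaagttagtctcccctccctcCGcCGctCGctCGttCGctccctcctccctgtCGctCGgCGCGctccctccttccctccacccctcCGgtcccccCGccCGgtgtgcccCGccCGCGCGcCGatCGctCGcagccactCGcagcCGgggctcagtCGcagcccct
Tbx1, chr16:18590672-18590921, minus strand: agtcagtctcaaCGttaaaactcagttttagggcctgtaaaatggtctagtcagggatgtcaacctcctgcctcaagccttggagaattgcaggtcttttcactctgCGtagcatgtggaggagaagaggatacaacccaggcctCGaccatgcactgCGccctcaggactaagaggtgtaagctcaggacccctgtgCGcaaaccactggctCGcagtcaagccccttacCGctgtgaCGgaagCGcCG
Foxo1, chr3:52268087-52268336, plus strand: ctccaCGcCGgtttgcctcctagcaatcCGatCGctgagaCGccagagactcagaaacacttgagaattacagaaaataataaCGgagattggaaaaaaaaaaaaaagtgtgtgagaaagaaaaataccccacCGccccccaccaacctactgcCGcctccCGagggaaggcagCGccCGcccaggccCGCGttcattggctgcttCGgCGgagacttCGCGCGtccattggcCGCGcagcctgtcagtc
Foxo3, chr10:42276696-42276945, minus strand: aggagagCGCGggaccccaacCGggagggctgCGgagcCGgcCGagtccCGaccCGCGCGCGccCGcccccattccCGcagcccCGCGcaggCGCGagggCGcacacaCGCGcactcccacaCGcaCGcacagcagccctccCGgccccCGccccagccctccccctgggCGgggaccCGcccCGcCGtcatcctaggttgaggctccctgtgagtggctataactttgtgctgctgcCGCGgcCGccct
Foxd3, chr4:99656049-99656298, plus strand: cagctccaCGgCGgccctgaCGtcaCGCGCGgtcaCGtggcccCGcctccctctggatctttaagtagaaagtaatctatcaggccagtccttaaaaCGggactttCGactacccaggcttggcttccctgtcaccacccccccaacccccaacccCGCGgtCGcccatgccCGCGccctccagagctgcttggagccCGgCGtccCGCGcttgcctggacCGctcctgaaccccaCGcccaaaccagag
The Foxo3 stretch holds 31 CG dinucleotides, that of Foxp4 27, that of Foxd3 21, that of Foxo1 20 and that of Tbx1 10.

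The promoter table covered 41 of the 60 members with 50 windows of 250 bases, since some genes have several starts. A window was called CG-rich when its G and C content was at least 50% and the observed over expected number of CG dinucleotides at least 0.6. By this rule 28 of the 50 windows were CG-rich (56%), against 41.5% of the 21263 windows of protein-coding genes and 31.0% of all 32851. The GATA genes had 4 CG-rich windows of 5 and the forkhead genes 20 of 33, whereas the T-box genes had 4 of 12. These windows belong to 4 GATA, 28 forkhead and 9 T-box genes, and a gene with several starts, such as Tbx22, counts more than once. Among the printed stretches, that of Tbx1 was not CG-rich (observed over expected 0.541), while the window at another annotated Tbx1 start was (0.603).

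Letters bound by the induced factors were also searched in these windows on both strands. The octamer ATGCAAAT, read by Oct4, was in 0 of the 50 windows, against 1.58% of windows of protein-coding genes. The Sox motif CATTGT was in 3 windows (6% against 9.35%), those of Foxd4, Foxp1 and Tbx22. The Krüppel-like factor motif CCNCACCC was in 16 windows (32% against 16.3%), which belong to 15 genes, among them Foxa2, Gata3, Foxp1 and Tbx4. This motif is mostly C, and the members' windows had a median G and C content of 60.4%, against 55.6% for protein-coding genes. The shares were not adjusted for base content, and its part in them was not tested. The E-box CACGTG, read by Myc, was in 2 windows (4% against 6.63%), those of Gata5 and Foxd3. In the Foxd3 stretch it begins 217 bases before the start and overlaps a capitalised CG, and the other 4 printed stretches hold none of the 4 motifs. A match is a run of letters and no measure of binding.

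The expression filter asked that a gene reach 6.48, the table's median log2 value, on at least 1 array. This held for 28 of the 60 members (46.7%) and for 11191 of all 19938 genes (56.1%). Of the 28 members, 24 reached it on both arrays and 4 on 1 array only: Tbx1, Foxd2 and Tbx6 with doxycycline and Eomes without. The filter was passed by 12 of the 13 broadly expressed forkhead genes and by 16 of the 47 other members. The values of a dim gene cannot be told from background, because the table gives no detection call. Gene levels are not compared with each other, since probesets differ in their response.

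At a 2-fold difference, 0 of the 28 members passing the filter were higher and 0 were lower with doxycycline. Over all genes passing the filter 0.92% were 2-fold higher and 0.768% were 2-fold lower, 1.69% in either direction. A count of 0 among 28 genes is near that background and is no result about the families. At 1.5-fold, 2 members were higher (Foxp4 and Tbx1) and 0 were lower, where 3.24% of all genes passing the filter were higher and 3.8% lower, 7.04% in either direction. The median log2 difference, plus minus no doxycycline, was 0.05 over the 60 members and 0.01 over all genes. Over genes passing the filter it was -0.01 for members and -0.03 for all.

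**Figure D1:**
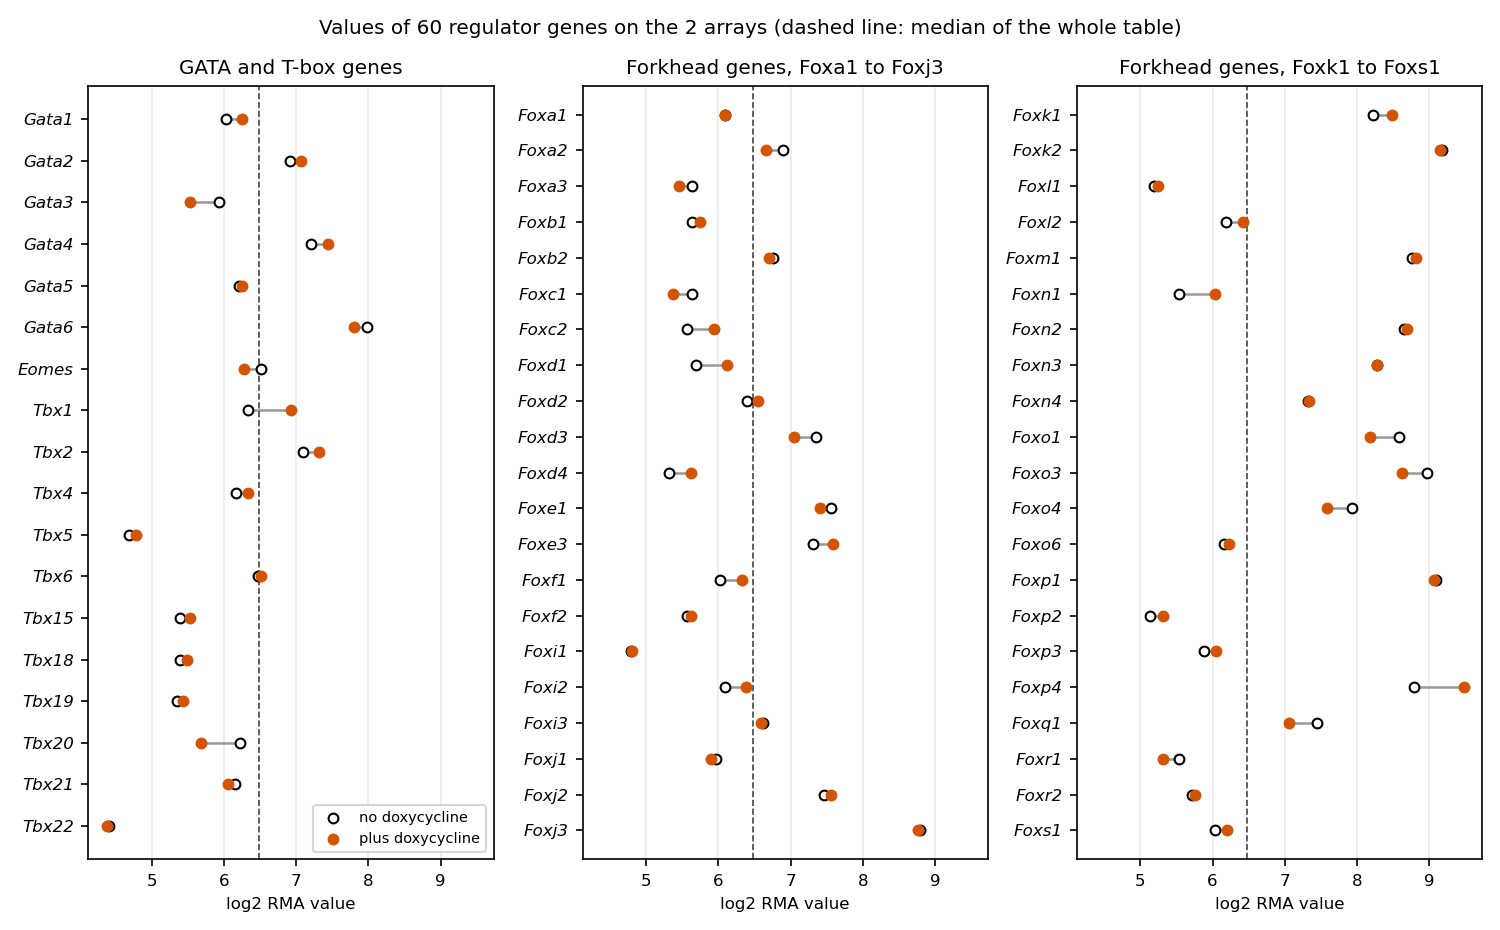
Log2 RMA values of all 60 genes on the array without doxycycline (open circles) and the array with doxycycline (filled circles), 1 array each, with the table median of 6.48 as a dashed line. The widest gap is that of Foxp4, 8.79 against 9.48, and 22 of the 60 pairs differ by less than 0.1.

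Among genes passing the filter, the spread of the members resembled that of other genes. Their robust SD (scaled median absolute deviation) was 0.252 over the 28 passing the filter, against 0.246 over all genes passing it. Over all 60 members it was smaller, 0.198 against 0.233 over all genes. Genes were also sorted into 20 bins of mean expression, and each difference was set against the median and robust SD of its bin. By this measure 44 of the 60 members (73.3%) lay within 1 robust SD of the bin median, where 66.7% of all genes did. Beyond 2 robust SD lay 3 members (5%), against 9.24% of all genes. These were Foxp4, 3.47 robust SD above its bin, and Tbx20 and Gata3, at -2.55 and -2.33, both under the expression filter. The spread across genes is no error between cultures.

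**Figure D2:**
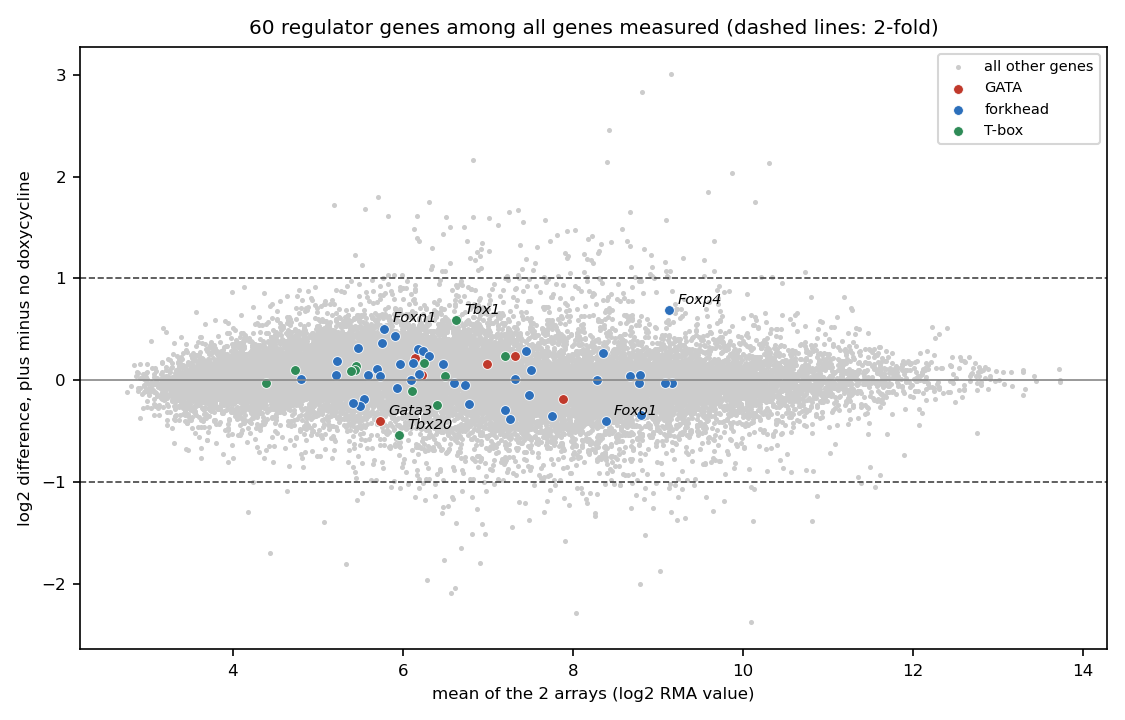
Log2 difference, plus minus no doxycycline, against the mean of the 2 arrays for every gene measured (grey) and for the GATA, forkhead and T-box members (coloured); dashed lines mark 2-fold. All 60 members lie between the dashed lines, from Tbx20 at -0.54 to Foxp4 at 0.69.

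Foxp4, a forkhead repressor of lung and gut development that pairs with its relatives Foxp1 and Foxp2, had the largest difference of any member. Its probeset 10451613 read 9.48 with doxycycline and 8.79 without, a difference of 0.69 or 1.61-fold. Of all genes passing the filter, 4.68% differed by more in either direction. The other FoxP genes gave smaller values: Foxp1, which has an embryonic stem cell splice form, read 9.07 against 9.10 (-0.03). Foxp2, known for neural circuits of vocal learning, read 5.32 against 5.13, and Foxp3, the regulatory T cell factor, 6.05 against 5.89, both below the filter on each array. Of the 4 FoxP genes, Foxp4 alone was past 1.5-fold.

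The FoxO genes encode factors that insulin and growth factor signals keep out of the nucleus through Akt kinases. Foxo1, which also acts in embryonic stem cell pluripotency, read 8.18 with doxycycline and 8.59 without (-0.40, 1.32-fold lower). Foxo3, linked to stem cell quiescence and stress resistance, read 8.63 against 8.97 (-0.35). Foxo4 read 7.58 against 7.93 (-0.35). All 3 genes were lower with doxycycline, each by less than 1.5-fold, and their median difference was negative under each alternative setting (-0.35 to -0.28). Each gene has 1 probeset, so the brightest-probeset setting could not move that median. Of the genes passing the filter, 16.2% differed by more than Foxo1 and 21.6% by more than Foxo3. Foxo6, the relative best known in brain, read 6.22 against 6.16, below the filter.

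The genes around FoxO were taken from a list of 20 kinases, upstream regulators and targets, of which 18 were measured and 16 passed the filter. The list was drawn up with the values of some of its genes known, Sesn1 and Cdkn1b among them. At 2-fold 2 of the 16 were lower and 0 higher, against 0.768% lower over all genes passing the filter. At 1.5-fold 4 were lower and 0 higher, against 3.8% lower. The median over the 18 measured genes was -0.25, with 9 positive and 9 negative differences, against 0.01 over all genes. Gadd45a, a growth arrest and DNA damage gene, read 7.56 with doxycycline and 8.78 without (2.32-fold lower). Sgk1, a kinase that phosphorylates FoxO proteins, read 9.0 against 10.15 (2.22-fold lower). The 4 alternative settings tried were an offset, quantile normalization, the brightest probeset and a loess trend removed. Both genes stayed past 2-fold under each, but with 1 probeset per gene the brightest-probeset setting could not change their values. Cited2, a coactivator-binding protein, read 8.13 against 9.05 (-0.92). Bcl2l11, which encodes the death protein Bim, read 7.29 against 7.88 (-0.59) and was just past 1.5-fold (1.51-fold lower).

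The remaining list genes were within 1.5-fold or below the filter. Txnip (-0.55), Sesn1 (-0.54), Sesn3 (-0.53) and the cell cycle inhibitor Cdkn1b (-0.50) had negative differences under 1.5-fold. Ccng2, a cyclin of resting cells, read 5.56 against 6.41 and lay below the filter on both arrays. Akt1 (0.26), Akt2 (0.13) and Pik3ca (0.13) had small positive ones, as had Pink1 (0.16), Cat, which encodes catalase (0.05), Insr (0.03) and Irs2 (0.01). Bcl6 read 6.04 against 5.99, below the filter. The superoxide dismutase gene Sod2, also a FoxO target, read 11.59 with doxycycline and 11.07 without (0.51). The part of FoxO in these values was not tested.

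**Figure D3:**
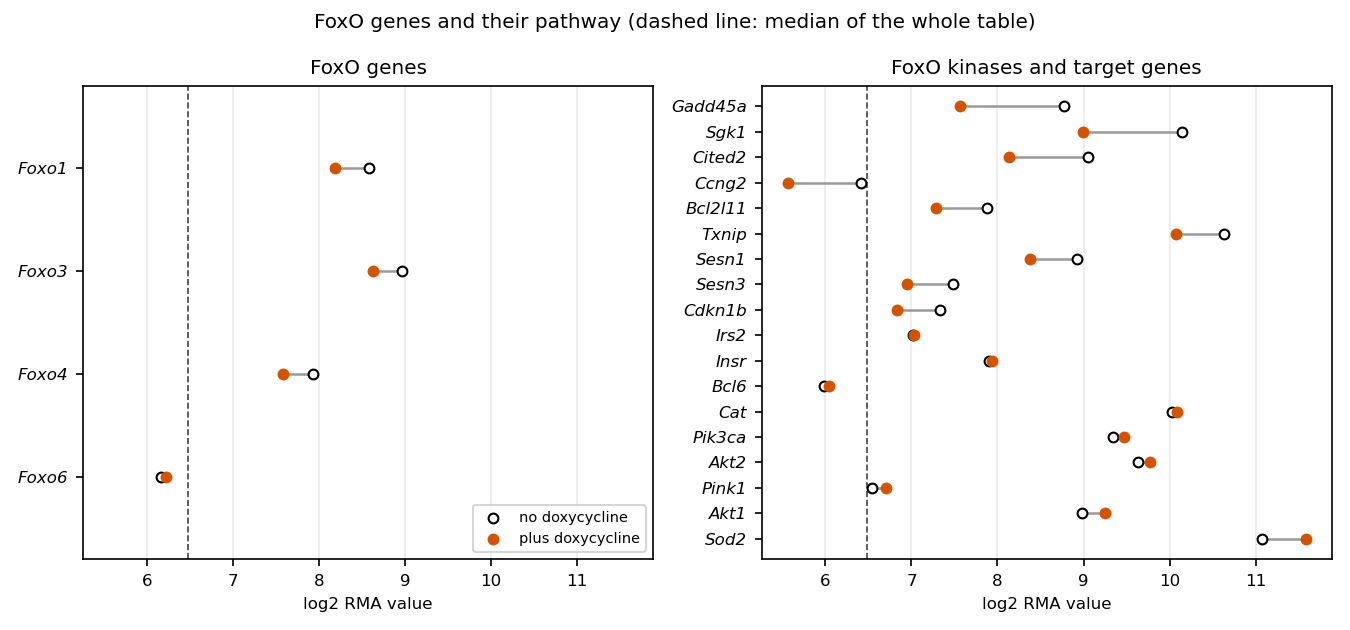
Log2 RMA values of the 4 FoxO genes (left) and of the 18 measured genes of the FoxO list (right) without (open) and with doxycycline (filled), 1 array each, with the table median as a dashed line. The filled circles of Foxo1, Foxo3 and Foxo4 lie left of the open ones, as do those of 9 list genes from Gadd45a to Cdkn1b, while Sod2 has the filled circle on the right.

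Foxm1, the forkhead activator of mitotic genes, read 8.81 with doxycycline and 8.76 without (0.05). Of 14 listed mitotic targets 13 were measured and all 13 passed the filter. None was past 1.5-fold in either direction. Their median was -0.17, with 11 of 13 differences negative, while over all genes passing the filter 44.4% of differences were positive. The largest were those of Birc5 (survivin, 8.51 against 8.83) and the phosphatase gene Cdc25b (7.63 against 7.93).

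Among the other broadly expressed forkhead genes Foxk1, which acts in glycolysis and autophagy, read 8.49 against 8.22 (0.27). This was 1.38 robust SD above its bin, about as far out as Foxo1 was below its own (-1.34). Its paralog Foxk2 read 9.16 against 9.18. Foxj2, Foxj3 and Foxn2 differed by 0.10, -0.02 and 0.04. Foxn3, named for suppressing checkpoint defects, has 2 probesets with opposite signs. Probeset 10402066 read 8.17 with doxycycline and 7.88 without (0.30), while probeset 10402063 read 8.39 against 8.68 (-0.28). The mean difference of 0.01 therefore hides a gap of 0.58 between probesets, and 3.86% of the 492 genes with 2 probesets passing the filter had a larger one. By its brightest probeset alone Foxn3 would be lower.

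Foxd3, which supports pluripotency in embryonic stem cells and later specifies neural crest, read 7.05 with doxycycline and 7.35 without (-0.30, 1.23-fold lower). Of the genes passing the filter, 27.2% differed by more.

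The endoderm group joins Gata4, Gata5 and Gata6 with the pioneer factors Foxa1, Foxa2 and Foxa3 and with Foxe1 of the thyroid. Gata4, active in primitive endoderm and heart, read 7.44 with doxycycline and 7.20 without (0.24). Gata6, the factor that specifies primitive endoderm in the blastocyst, read 7.80 against 7.98 (-0.18), so the signs of these close relatives differed. Foxa2, needed for node, notochord and endoderm, read 6.66 against 6.89 (-0.24). Foxe1 read 7.41 against 7.56 (-0.15). Foxa1, Foxa3 and Gata5 lay below the filter with differences of -0.00017, -0.18 and 0.05. The group's median was -0.15 over 7 genes, 5 of them negative and 0 of the 4 passing the filter past 1.5-fold. It was negative under each alternative setting (-0.15 to -0.09). Each gene of the group has 1 probeset, so the brightest-probeset setting could not move this median.

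Genes of the primitive endoderm, many of them downstream of Gata4 and Gata6, were measured for 16 of 17 listed symbols. Of the 14 passing the filter 1 was 2-fold lower and 0 were higher, where 0.768% of all genes passing the filter were 2-fold lower. At 1.5-fold 2 were lower and 0 higher, against 3.8% lower of all genes. The median over the 16 was 0.06, and of the 14 passing the filter 8 had positive and 6 negative differences. The endocytic receptor gene Lrp2 read 8.18 with doxycycline and 9.20 without (2.02-fold lower). It was under 2-fold with an offset of 32 (-0.94), with quantile normalization (-0.96) and with a loess trend removed (-0.94). Lrp2 has 1 probeset, so the brightest-probeset setting could not change its value. Its partner receptor gene Cubn read 8.18 against 9.11 (-0.93). The secreted glycoprotein gene Sparc had -0.44, Pdgfra had -0.43 and Dab2 had -0.33. On the other side the laminin chain gene Lama1 (0.34) and the nuclear receptor gene Hnf4a (0.34) had positive differences. Sox17, a defining endoderm factor, had -0.18 and Sox7 0.16.

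The blood group holds Gata1 of the erythroid lineage, Gata2 of blood stem cells and Gata3 of T cells and trophoblast. Gata2 read 7.07 with doxycycline and 6.91 without (0.16). Gata1 read 6.25 against 6.03, and Gata3 read 5.53 against 5.93 (-0.40, 1.32-fold lower), both below the filter. Foxp3 and Tbx21, the factors of regulatory and interferon-producing T cells, were below it too. Of 8 GATA cofactor genes 5 passed the filter and 0 were past 1.5-fold, with a median of 0.10 over the 8. The largest differences among the 5 were those of the bridging factor gene Lmo2 (7.27 against 7.02), Lyl1 (6.54 against 6.33) and Zfpm1, which encodes the Gata1 partner FOG (7.43 against 7.32).

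Eomes, a T-box activator of trophoblast and mesendoderm genes, read 6.28 with doxycycline and 6.52 without (-0.24, 1.18-fold lower). It passed the filter through the array without doxycycline alone. Tbx6, which commits cells to paraxial mesoderm, read 6.51 against 6.47 (0.04). The primitive streak list around T, Eomes and Tbx6 had 19 of 19 genes measured and 8 passing the filter, 0 of these 8 past 1.5-fold. The median over the 19 was 0.12, with 14 differences positive and 5 negative. Of the 8 passing the filter 7 were positive, where 44.4% of all genes passing it were. Relative to the median of genes of like expression, however, 10 of the 19 were above and 9 below. After removal of a loess trend the median over the 19 was 0.11. Wnt3a (6.16 against 5.53) and Cer1 (5.51 against 4.91) differed by more than 1.5-fold but lay below the filter. Among the 8, the largest were the repressor gene Snai1 (7.61 against 7.29), Hand1 (6.96 against 6.66) and Cdx1 (7.23 against 7.06). Mixl1 (0.05) and Gsc (-0.08), markers of the streak and organizer, differed by less than 0.1.

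Tbx1, a regulator of the pharyngeal apparatus and cardiac outflow tract, had the largest difference of the T-box genes. Its probeset 10438347 read 6.93 with doxycycline and 6.34 without (0.59, 1.5-fold higher). It passed the filter only through the array with doxycycline, and a difference was thus built into its passing. It was just past 1.5-fold and fell short of it with an offset of 32 (0.44), with quantile normalization (0.58) and with a loess trend removed (0.55). Tbx20, a cardiac repressor, was the reverse (5.68 against 6.22, -0.54) and lay below the filter. Tbx5, the factor of forelimb and heart, read 4.79 against 4.69, low on both arrays. Tbx2 read 7.32 against 7.09 (0.23), and Tbx4 of the hindlimb, its neighbour on the chromosome, 6.33 against 6.16 (0.17).

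The mesoderm group of 16 forkhead and T-box genes had a median difference of 0.17, with 14 of 16 positive. Only 3 of them (Tbx1, Tbx2 and Foxd2) passed the filter, and all genes below the filter leaned the same way: 60.8% of their differences were positive, with a median of 0.05. Relative to the median of genes of like expression, 12 of the 16 were above, and after removal of a loess trend the group's median was 0.09. The genes below the filter included Foxd1 of kidney stroma (6.12 against 5.69), Foxc2 of lymphatic vessels (5.94 against 5.57) and its relative Foxc1, lower with doxycycline (5.37 against 5.63). Fibroblast or feeder cell markers also leaned positive, with a median of 0.26 over 8 genes, 4 of them passing the filter and 0 past 1.5-fold. They spanned 3.63 to 7.61 with doxycycline and 3.38 to 7.22 without. Lum, Dcn and Postn were below the filter on both arrays (3.38 to 4.81), while Col1a1 (0.45), Col1a2 (0.50), Thy1 (0.27) and Col3a1 (-0.07) passed it. S100a4 read 5.41 against 5.83, lower with doxycycline and below the filter. With the offset the median of the 8 was 0.12. The part of such cells in the group's values was not tested. In bulk RNA, more cells of a type and more RNA per cell cannot be told apart.

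**Figure D4:**
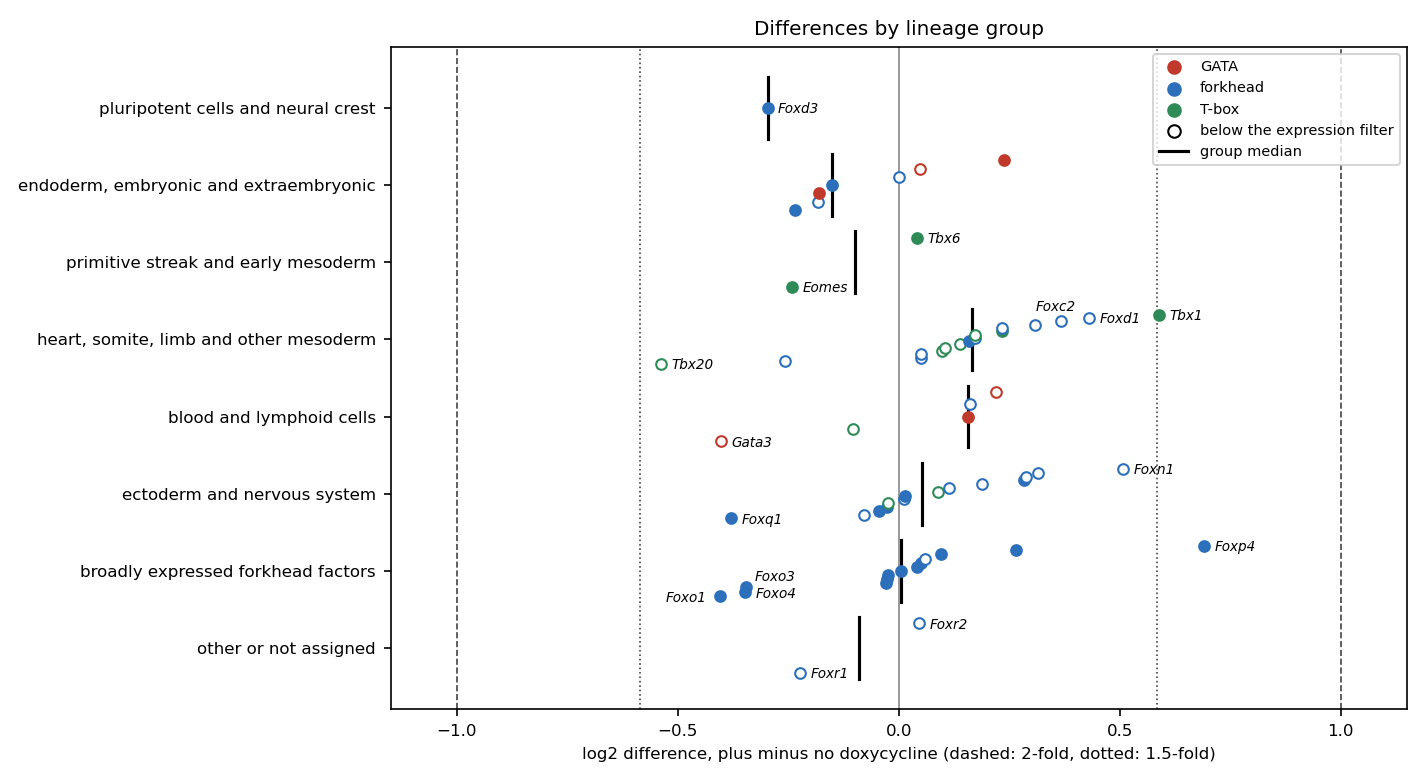
Log2 difference, plus minus no doxycycline, of each gene by lineage group, coloured by family, open where below the expression filter, with the group median as a bar and lines at 1.5-fold (dotted) and 2-fold (dashed). Group medians lie between -0.30 (Foxd3 alone) and 0.17 (mesoderm), and only Tbx1 and Foxp4 pass a dotted line.

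Cardiac genes that act with Gata4, Tbx5 and Tbx20 were all measured, 11 in number, and 5 passed the filter. At 2-fold 1 of the 5 was higher and 0 lower, against 0.92% higher over all genes passing the filter. Nppb, which encodes a natriuretic peptide, read 7.31 with doxycycline and 5.70 without (3.05-fold higher). It passed the filter through the array with doxycycline alone and kept a 2-fold difference with the offset (1.18). The other 4 passing it were within 1.5-fold, with the homeobox gene Nkx2-5 at 7.79 against 7.5 (0.29) and Tnnt2, which encodes a troponin, at 6.85 against 6.68. The median over the 11 was 0.17, and 0.09 after removal of a loess trend. As deposited, the median was 0.01 over all genes and 0.05 over all genes below the filter, where 6 of the 11 lay.

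The ectoderm and nervous system group of 14 genes had a median of 0.05, with 5 passing the filter and 0 past 1.5-fold. Foxq1, a factor of hair differentiation and epithelial cells, read 7.07 with doxycycline and 7.44 without (-0.38). Foxe3 of the lens read 7.59 against 7.31 (0.28), and Foxn4, which guides retinal and spinal interneurons, read 7.33 against 7.32. Foxb2 and Foxi3 differed by -0.04 and -0.03. The 9 genes below the filter ranged from -0.08 (Foxj1, the regulator of motile cilia) to 0.51 (Foxn1, the thymus and hair factor, 6.04 against 5.53). Foxr1 and Foxr2, placed in no lineage group, were below the filter at -0.22 and 0.05.

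Several members lie next to each other in the genome, and their differences can be set side by side. Foxc2 and Foxl1 are adjacent among measured genes, with 1 gene between Foxc2 and Foxf1, and all 3 had positive differences (0.37, 0.05 and 0.31). Foxq1, Foxf2 and Foxc1 form a similar group and had -0.38, 0.05 and -0.26. Foxd2 and Foxe3, adjacent, had 0.16 and 0.28. Foxf1, a factor of lateral mesoderm and lung vessels, has 2 probesets, which read 5.51 against 5.05 and 7.15 against 7.0. The second alone passed the filter. The likeness of neighbours was not tested.

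Embryonic stem cell markers were well represented on both arrays: all 8 (Pou5f1, Nanog, Sox2, Zfp42, Esrrb, Dppa5a, Tdgf1 and Utf1) passed the filter, from 10.3 to 12.5 with doxycycline and from 10.7 to 13.0 without, with a median difference of -0.48 and 7 of 8 negative. Of the 4 induced factors, Pou5f1 (0.41), Klf4 (0.43) and Myc (0.35) were higher and Sox2 was lower (-1.01), and whether their probes read the transgenes is unknown. The labels of the arrays are thus not checked by these genes, and all directions rest on the labels. Of the trophectoderm markers 3 of 7 passed the filter, Krt8 (3.36-fold higher), Krt18 (0.08) and Hand1 (0.30), while Cdx2 and Elf5 were below it (5.14 and 5.58 with doxycycline, 5.22 and 5.51 without). Krt8 alone of the 3 was past 2-fold, where 0.92% of all genes passing the filter were 2-fold higher.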

How the data were processed

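The authors deposited log2 values of 35556 probesets on 2 arrays, made with Affymetrix Expression Console and RMA per the submitters' processing notes, which name no version. RMA aligns the arrays, which hides shifts shared by most genes, and compresses differences of dim genes.

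Probesets with 1 annotated gene (21789, 21698 of them in the GRCm38.p6 gene table) were averaged per gene, giving 19938 genes; 1621 probesets with several genes and 12146 unlisted ones were left out. Of the members 58 have 1 probeset and 2 have 2. Arrays were compared by subtracting log2 values, called at 2-fold among genes whose higher value reached 6.48. With 1 array per group there is no p-value.

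Members and lists were chosen with earlier results of these data known. Named members were those past 1.5-fold, the 3 largest of each family among those passing the filter, T, Eomes, Gata4, Gata6, Foxa2, Foxd3 and those with 2 probesets; list genes were those called and the 3 largest. Other names were added after their values were seen. The alternatives were 2 other filters, an offset of 32, a loess trend removed, quantile normalization, the brightest probeset, single probesets, a 1.5-fold threshold and added relatives. Steps were tested on simulated data. Scripts ran in Python 3.11.15 with pandas 2.3.3, NumPy 2.4.6, matplotlib 3.10.9 and statsmodels 0.14.6.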

Additional observations from a re-analysis of the deposited data

How the results depend on the processing

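The count of members past 2-fold was 0 in each direction under every alternative run at that threshold (no filter, both values above the table median, offset of 32, loess trend removed, quantile normalization, brightest probeset, single probesets, Foxh1, Tbx3, Mga and Tbr1 added). With a 1.5-fold threshold it was 2 higher and 0 lower, and of these Tbx1 was under 1.5-fold with the offset (0.44), quantile normalization (0.58) and the loess trend removed (0.55). The median over the members lay between -0.02 (both values above the table median) and 0.05, so its sign is not settled. It was -0.01 over the members passing the filter, an alternative chosen after seeing the data. Of 15 members whose differences were recomputed under 4 settings, 1 changed sign, Foxn3 by its brightest probeset. Only Foxn3 and Foxf1 among them have 2 probesets, so that setting could not move the others. Quantile normalization moved the median of all genes by 0.0152, the most of any setting. Moves were judged against the within-gene SD of probeset differences (0.167). Leaving out a replicate was not possible with 1 array per group. No paired analysis was possible because each group has 1 array. Signal near background limits the 32 members below the filter.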

Other observations

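Relatives outside the rule were measured too. Foxh1, the forkhead partner of Smad proteins in Nodal signalling, read 7.5 with doxycycline and 7.0 without (0.51), a larger difference than that of any forkhead member passing the filter except Foxp4. Tbx3, a T-box factor of naive pluripotency, read 9.91 against 9.95 (-0.04). Mga, which carries a T domain and pairs with Max, read 10.22 against 10.43 (-0.20). Tbr1 of cortical neurons read 5.22 against 5.40, below the expression filter.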
